A study of Homo sapiens with 21 samples.

Results

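The nuclear-encoded subunits of the mitochondrial respiratory chain and ATP synthase were examined in OCI-AML5 cells treated with UM171. Members were the protein-coding genes whose symbols follow the naming patterns of subunits of complexes I to V (NDUFA, NDUFB, NDUFC, NDUFS and NDUFV, SDHA to SDHD, UQCR and CYC1, COX4 to COX8, and ATP5). The rule used names only and no measured value. It gave 85 of the 58174 gene identifiers in the files, of which 36 belong to complex I, 4 to complex II, 10 to complex III, 15 to complex IV and 20 to complex V. COX4I1, COX7A2L and NDUFAB1, also respiratory chain genes, have names that the patterns do not match and were not members.

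OCI-AML5 is an established human acute myeloid leukemia cell line, and UM171 is a small molecule agonist of hematopoietic stem cell self-renewal. RNA-seq was made from 21 libraries in 7 groups of 3. Control cells received DMSO (labelled 72 h) or UM171 at 500 nM for 6, 24, 48 or 72 h. Cells of OCI-AML5 clones carrying sgEPCR, a guide RNA against the gene of the protein C receptor EPCR (PROCR), received DMSO (labelled 24 h) or UM171 at 500 nM for 24 h. The labels call the sgEPCR cells both EPCR null and knockdown, name no guide for the control cells (the study's text names the control guide sgAAVS1), and do not say which clone gave which library. The study's text describes 3 independent sgEPCR clones, so clone and genotype cannot be told apart in comparisons with control cells. The study's text gives another concentration of UM171 for both experiments and a supplementary list places the control DMSO libraries at the start of the time course. With the labels as they stand, UM171 and DMSO were set against each other at equal hours only at 72 h in control cells and at 24 h in sgEPCR cells. In all other comparisons with control DMSO, treatment or genotype and the labelled hours cannot be told apart. Nothing in the labels ties libraries to separate cultures, so p-values measure the spread between these libraries. That spread may be technical or, in sgEPCR cells, lie between clones.

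The respiratory chain passes electrons from NADH through complex I, and from succinate through complex II, to complexes III and IV, which reduce oxygen, and the proton gradient built on the way drives ATP synthase, here called complex V. Most subunits are encoded in the nucleus and imported, while a small core set is encoded in mitochondrial DNA, so all complexes but the wholly nuclear complex II draw on both genomes. Hematopoietic stem cells are known for low respiration and acute myeloid leukemia cells for reliance on it.

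Total counts were 24286668 to 51540166 per library. PROCR was at 3.37 to 4.30 TPM (a level per transcript length, scaled to the library) in the DMSO libraries, 48.5 TPM in each UM171 24 h library and 4.23 to 8.94 TPM in the sgEPCR UM171 libraries. All 8 markers of myeloid cells reached 1 TPM. Of 8 markers of other cell types 3 did (PECAM1, ITGA2B and COL1A1), and HBB and CD3E stayed at or under 0.11 TPM. The summed other-cell markers moved with the groups, at 43.9 to 47.4 TPM in DMSO, 45.0 to 46.9 at 6 h, 15.6 to 17.2 at 24 h, 22.1 to 27.4 at 48 h, 58.0 to 62.6 at 72 h, 5.65 to 8.71 in sgEPCR DMSO and 17.5 to 40.4 in sgEPCR UM171. Their part in the results below was not tested. sgEPCR DMSO replicate 1 and sgEPCR UM171 replicate 2 stood apart, with 35.9% and 32.2% of counts on mitochondrially encoded genes against 7.73% to 13.5% in the other 19 libraries, and sgEPCR counts and tests of named genes are given with and without them. These libraries, from different groups, deviated from their group means together (r = 0.641 across genes, a description). Whether this reflects RNA quality, library preparation, differences between clones or the labels was not tested.

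The promoters of 67 of the 85 members were found in RefSeq (GRCh38.p14), each as 250 bases before and 50 after the first listed start. They are shown so that promoters of the members can be compared by sequence. The comparison promoters were not limited to genes expressed in these cells. Whether promoter sequence had a part in the changes below was not tested. Of the letters searched on both strands, CCGGAAG, the core bound by ETS factors such as GABPA, occurred in 28.4% of member promoters and 14.2% of 15843 protein-coding promoters. GCATGCG, the middle letters of the NRF1 site, occurred in 19.4% against 5.14%, AAGATGG, from the YY1 site, in 23.9% against 6.40%, and GGGCGG, bound by SP1, in 59.7% against 58.5%. None of these strings contains another, and where the NRF1 string matches on both strands its 2 matches overlap. The bases before the start are printed 5′ to 3′ for ATP5MC1 and NDUFB2, the members that rose most at 24 h, UQCRQ, which holds the ETS core, and NDUFB4 and SDHD, which hold the NRF1 string, with matches in capitals.
ATP5MC1, chr17:48892537-48892786, plus strand: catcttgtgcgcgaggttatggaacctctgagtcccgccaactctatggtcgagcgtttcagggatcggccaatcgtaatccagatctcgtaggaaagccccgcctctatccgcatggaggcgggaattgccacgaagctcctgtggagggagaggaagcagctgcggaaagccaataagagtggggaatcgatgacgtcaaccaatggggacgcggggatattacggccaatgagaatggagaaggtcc
NDUFB2, chr7:140696458-140696707, plus strand: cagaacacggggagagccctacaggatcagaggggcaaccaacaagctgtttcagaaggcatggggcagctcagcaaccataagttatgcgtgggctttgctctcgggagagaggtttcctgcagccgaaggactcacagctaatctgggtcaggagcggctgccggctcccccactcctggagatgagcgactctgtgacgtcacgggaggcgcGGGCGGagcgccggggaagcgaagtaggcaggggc
UQCRQ, chr5:132866392-132866641, plus strand: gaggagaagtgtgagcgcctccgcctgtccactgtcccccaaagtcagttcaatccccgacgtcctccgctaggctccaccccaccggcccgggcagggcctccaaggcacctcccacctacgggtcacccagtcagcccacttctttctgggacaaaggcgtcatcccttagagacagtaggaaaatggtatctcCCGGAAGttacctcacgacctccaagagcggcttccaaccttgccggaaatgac
NDUFB4, chr3:120596086-120596335, plus strand: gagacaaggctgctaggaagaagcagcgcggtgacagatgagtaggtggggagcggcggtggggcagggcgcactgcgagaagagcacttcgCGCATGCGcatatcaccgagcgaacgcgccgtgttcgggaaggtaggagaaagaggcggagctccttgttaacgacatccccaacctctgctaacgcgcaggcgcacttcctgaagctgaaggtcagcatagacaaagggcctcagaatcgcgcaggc
SDHD, chr11:112086623-112086872, plus strand: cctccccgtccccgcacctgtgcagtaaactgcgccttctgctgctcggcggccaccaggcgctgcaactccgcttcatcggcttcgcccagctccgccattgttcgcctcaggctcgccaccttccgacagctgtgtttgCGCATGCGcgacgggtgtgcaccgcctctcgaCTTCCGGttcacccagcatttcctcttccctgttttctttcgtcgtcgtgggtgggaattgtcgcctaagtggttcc
The ATP5MC1 stretch held none of the 4 strings and the NDUFB2 stretch held only the SP1 string. The median log2 change at 24 h was 0.48 over the 19 members with the ETS core and 0.42 over the 45 tested without it. Medians with and without were 0.40 and 0.46 for the NRF1 string, 0.37 and 0.48 for the YY1 string and 0.43 and 0.45 for the SP1 string, a description of these libraries.

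Nearly all members were expressed in untreated cells. The highest DMSO means were 554 ± 18.7 TPM for UQCRB, a subunit of complex III, 548 ± 20.9 TPM for ATP5F1B, the catalytic beta subunit of ATP synthase, and 529 ± 18.1 TPM for NDUFB9, an accessory subunit of complex I (SD, n = 3 each). COX6A2, COX7A1 and COX7B2, forms of complex IV subunits known from muscle or testis, had 0 counts in every library, which allows at most 3 counts in each. COX8C and ATP5MGL had at most 3 and 2 counts in any library. The other form of each pair was abundant, with COX6A1 at 260 to 285 TPM, COX7A2 at 206 to 238 TPM, COX7B at 161 to 179 TPM and COX8A at 225 to 241 TPM in DMSO. After a filter on low counts 80 members were tested in the time course and 79 in the sgEPCR fit, which left out COX6B2. UQCRHL is a retrocopy of UQCRH, and ATP5MF-PTCD1 is a readthrough transcript that shares exons with ATP5MF, so reads of these pairs, and of SDHA with its pseudogenes, may be split uncertainly.

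At 24 h of UM171 the subunits of all 5 complexes were mostly higher than in DMSO. Summed over the 85 genes, the level was 12899, 13537 and 13504 TPM in the DMSO libraries and 19107, 19140 and 18844 TPM in the UM171 24 h libraries. The groups did not overlap. By edgeR's quasi-likelihood test with Benjamini-Hochberg adjustment over all genes (adjusted p under 0.05), 65 of the 80 tested members were higher and 4 were lower, where 34.9% of all 16575 genes tested were higher and 34.8% lower. The median log2 change was 0.43 over the members and -0.01 over all genes. In 70 of the 80 members every UM171 24 h library lay above every DMSO library in TPM, which held for 35.6% of all genes tested.

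Complex IV, which passes electrons to oxygen, had the largest rise of the summed level, to 1.60 ± 0.01 times DMSO (SD of the 3 UM171 libraries), from 2346, 2484 and 2523 TPM to 3922, 3958 and 3916 TPM. Complexes I and V rose to 1.42 ± 0.02 and 1.42 ± 0.03 times, complex II to 1.32 ± 0.03 times and complex III to 1.27 ± 0.04 times. These are folds of summed levels with no test. Members called higher were 28 of 36 in complex I, 3 of 4 in complex II, 8 of 10 in complex III, 10 of 11 in complex IV and 16 of 19 in complex V. In complex I the 29 accessory subunits had a median log2 change of 0.57, with 23 higher and 2 lower, and the 7 core subunits a median of 0.23, with 5 higher and 0 lower.

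**Figure D1:**
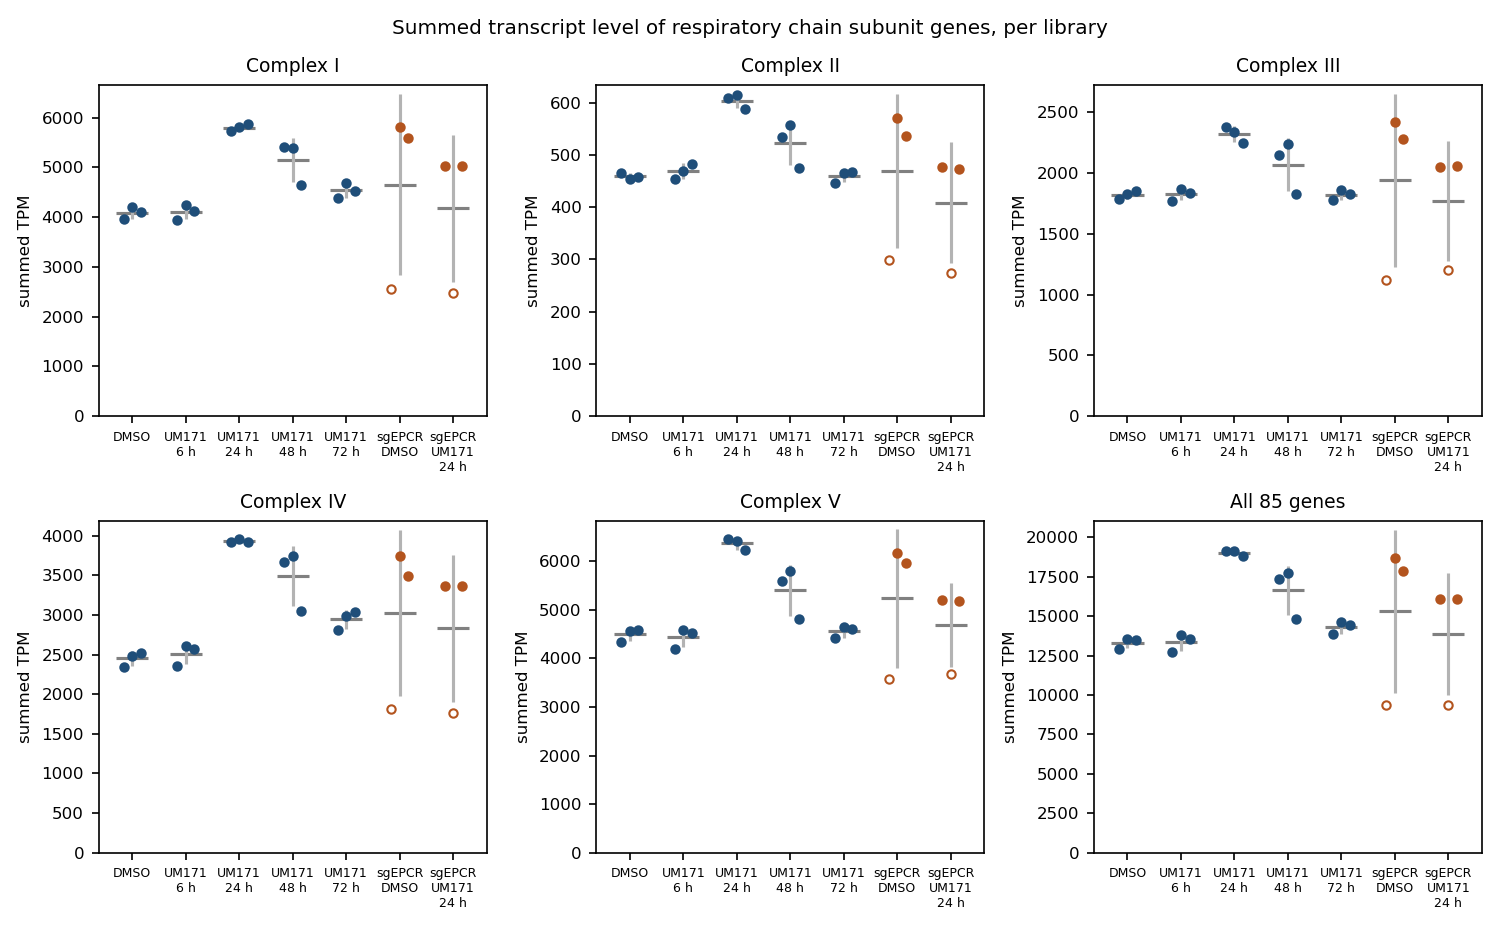
Summed TPM (y axis) of the members of each complex and of all 85 genes in each library, by group (x axis); dots are libraries, bars the mean and SD of 3. Every UM171 24 h library lies above every DMSO library in all panels, and the open dots are the libraries with 35.9% and 32.2% mitochondrial counts.

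NDUFB2, an accessory subunit of complex I (chr7:140690777-140722790, GRCh38), rose most. Its level was 40.8, 40.7 and 43.6 TPM in DMSO and 112, 111 and 108 TPM at 24 h (log2 change 1.26, SE 0.07, adjusted p = 7.2e-11). All 3 treated libraries lay far above the controls. NDUFS5, another accessory subunit (chr1:39026318-39034636), was at 166, 157 and 170 TPM in DMSO and 340, 345 and 342 TPM at 24 h (log2 change 1.02, SE 0.06, adjusted p = 4.5e-11). Again the groups did not overlap. The core subunits of complex I carry its flavin and iron-sulfur centres. NDUFS1 was at 66.7, 63.4 and 69.1 TPM in DMSO and at 95.9, 97.2 and 93.7 TPM at 24 h (log2 change 0.46, SE 0.05), and NDUFV1, which binds the flavin, changed by 0.23 (SE 0.05, adjusted p = 0.0012). NDUFS7 did not pass the test, at 107, 118 and 125 TPM against 109, 123 and 130 TPM (log2 change -0.06, SE 0.07, adjusted p = 0.44), and its groups overlapped.

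In complex II, which is also succinate dehydrogenase of the citric acid cycle, the median change of the 4 subunits was 0.20. SDHA, the flavoprotein, was at 73.4, 78.9 and 77.3 TPM in DMSO and 92.9, 94.0 and 94.3 TPM at 24 h (log2 change 0.25, SE 0.04, adjusted p = 8.7e-06). SDHB, the iron-sulfur subunit, was at 132, 123 and 128 TPM and then at 189, 188 and 172 TPM (log2 change 0.39, SE 0.04, adjusted p = 2.4e-07). The groups did not overlap for either gene. SDHC, a membrane anchor, was at 173, 157 and 157 TPM and then at 222, 225 and 222 TPM, yet its change on the scale of counts was 0.08 (SE 0.03, adjusted p = 0.039). For this gene the per-length level and the count-based change thus differed in size, and the cause was not tested. SDHD, the other anchor, did not pass (log2 change 0.14, SE 0.07, adjusted p = 0.065).

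In complex III, CYC1 (cytochrome c1) was at 195, 187 and 190 TPM in DMSO and 213, 231 and 236 TPM at 24 h (log2 change 0.21, SE 0.05, adjusted p = 0.0016). The core protein UQCRC1 changed by 0.30 (SE 0.06, adjusted p = 0.00013) and the Rieske iron-sulfur protein UQCRFS1 by 0.20 (SE 0.07, adjusted p = 0.013). UQCRQ, a small subunit, changed most among members of this complex, from 99.2, 104 and 103 TPM to 220, 218 and 203 TPM (log2 change 0.94, SE 0.05, adjusted p = 5.5e-11). Its UM171 libraries were all above its DMSO libraries. In complex IV, NDUFA4, a subunit first assigned to complex I, went from 140, 144 and 157 TPM to 319, 317 and 305 TPM (log2 change 1.00, SE 0.08, adjusted p = 4e-09). COX7A2 went from 206, 227 and 238 TPM to 475, 435 and 458 TPM (log2 change 0.89, SE 0.04, adjusted p = 1.7e-11), and neither gene's groups overlapped. COX7B, COX8A, COX5B, COX6A1, COX5A and COX6B1 rose by 0.70, 0.64, 0.51, 0.48, 0.26 and 0.21 on the log2 scale. COX4I1, a complex IV subunit outside the rule, was at 516, 559 and 523 TPM in DMSO and 556, 550 and 560 TPM at 24 h (log2 change -0.01, SE 0.04, adjusted p = 0.89), with overlapping groups. NDUFAB1 and COX7A2L, also outside the rule, rose by 0.64 (SE 0.09) and 0.28 (SE 0.04). Of 7 tested respiratory genes outside the rule (these with NDUFA4L2, CYCS, COX14 and COX20), 5 were higher and 0 lower (34.9% and 34.8% of all genes).

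In ATP synthase, ATP5F1A and ATP5F1B, the alpha and beta subunits of the catalytic head, rose by 0.38 (SE 0.06) and 0.47 (SE 0.07). ATP5F1B was at 535, 537 and 573 TPM in DMSO and 713, 766 and 740 TPM at 24 h, without overlap. ATP5IF1, the inhibitor that holds back ATP hydrolysis by the enzyme, was at 115, 144 and 141 TPM and then at 246, 233 and 220 TPM (log2 change 0.69, SE 0.09, adjusted p = 2.3e-06), also without overlap. ATP5MF, a subunit of the membrane part, was at 359, 419 and 407 TPM and then at 787, 705 and 652 TPM (log2 change 0.81, SE 0.07, adjusted p = 3.1e-08). The readthrough transcript ATP5MF-PTCD1 went the other way, from 8.94, 10.4 and 9.95 TPM to 5.66, 6.68 and 6.14 TPM (log2 change -0.68, SE 0.10, adjusted p = 1e-05).

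The c subunit, which forms the rotating ring of ATP synthase, is encoded by 3 genes whose mature peptide is the same, so their levels add to one pool of message. ATP5MC1 (chr17:48892765-48895871) was at 85.2, 71.1 and 74.9 TPM in DMSO and 182, 204 and 192 TPM at 24 h (log2 change 1.14, SE 0.07, adjusted p = 8.9e-11). ATP5MC3 (chr2:175176258-175181710) was at 224, 257 and 248 TPM and then at 465, 469 and 466 TPM (log2 change 0.87, SE 0.06, adjusted p = 1.7e-09). The groups did not overlap for either gene. ATP5MC2 (chr12:53632726-53677408), the most abundant of the 3 in DMSO, was at 425, 491 and 509 TPM and then at 541, 549 and 563 TPM (log2 change 0.18, SE 0.05, adjusted p = 0.0054). ATP5MC2 made up 59.7% ± 1.64 of the summed TPM of the 3 genes in DMSO and 45.5% ± 0.57 at 24 h (SD, n = 3). The log2 ratio of ATP5MC1 to ATP5MC2 was higher by 1.11 at 24 h, with an exact two-sided permutation p of 0.1, the smallest that 3 against 3 libraries allow, and 0.2 after adjustment over the 10 ratios compared. At 72 h ATP5MC2 again made up 63.8% ± 2.00.

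**Figure D2:**
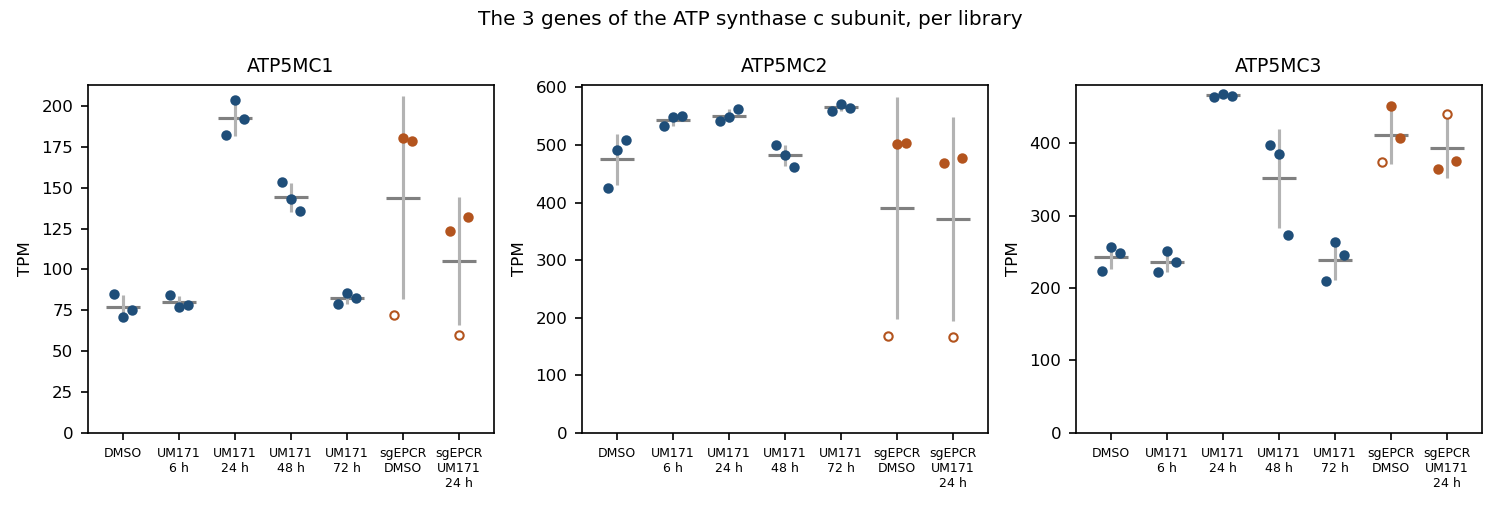
TPM (y axis) of ATP5MC1, ATP5MC2 and ATP5MC3 in each library by group (x axis), with the mean and SD of 3; open dots are the libraries with 35.9% and 32.2% mitochondrial counts. ATP5MC1 and ATP5MC3 lie higher at 24 h than in DMSO by 1.14 and 0.87 on the log2 scale, ATP5MC2 by 0.18.

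Members were lower at 24 h in 4 cases. COX6B2, a testis form of a complex IV subunit, had 10, 6 and 10 counts in DMSO and 0, 2 and 0 counts at 24 h, a ratio per total count of 0.068 (95% exact interval 0.0078 to 0.27, counting error only). NDUFV3, an accessory subunit of complex I, was at 43.7, 44.6 and 44.5 TPM and then at 37.1, 35.4 and 35.5 TPM (log2 change -0.38, SE 0.06, adjusted p = 1.5e-05), without overlap. NDUFA10 changed by -0.25 (SE 0.04), while its TPM overlapped between groups, at 76.3, 74.9 and 87.8 against 73.7, 81.2 and 83.6. ATP5MF-PTCD1 is the fourth. Members past the study's own limits at 24 h (more than 2-fold and adjusted p under 0.0001) were NDUFB2, NDUFS5, NDUFA4 and ATP5MC1, all higher, where 9.03% of all genes passed upward and 4.7% downward; without DMSO replicate 2 there were 2.

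Members were short, with a median length of 716 bases against 2046 over all genes tested. Across the 80 members the 24 h change and length had a Spearman correlation of -0.52, and across all genes of 0.03, as a description over genes that share libraries. With an offset for gene length 64 members were called higher and 4 lower, all of them also called in that direction without it.

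At 6 h, 0 members were higher and 46 lower (31.8% and 30.3% of all genes), and 0 passed the study's limits (6.78% of all genes upward and 0.247% downward), the largest fall being that of CYC1 by 0.47 on the log2 scale, from 195, 187 and 190 TPM to 148, 157 and 159 TPM. The 6 h falls depended on the scaling. With scaling by total count, which moved the median of all genes to 0.20, 10 members were called higher and 5 lower. The members' median log2 change went from -0.18 to 0.01. Direction was followed only for named genes called in the main fit. Among these, SDHB, SDHC, SDHD, UQCRC1 and NDUFA13 turned. Against the median of all genes the members' median was lower by 0.19 under both scalings. The summed TPM of the members at 6 h, 12735, 13776 and 13543, overlapped that in DMSO.

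At 48 h, 52 members were higher and 7 lower (37.1% and 35.0% of all genes), with a median log2 change of 0.27, and 0 passed the study's limits (11.7% upward and 4.67% downward). Summed levels were 17345, 17717 and 14816 TPM, and replicate 3, the lowest, had 13.5% mitochondrial counts against 8.75% and 7.96% in its replicates. At 72 h, the time at which treated and DMSO libraries of control cells have equal labels, 22 members were higher and 25 lower (38.8% and 36.8% of all genes), with a median of -0.02, and 0 passed the study's limits (15% upward and 5.8% downward). The balance of these counts depended on the method, with 29 higher and 11 lower under limma on log2(TPM + 1), 29 and 15 with scaling by total count and 30 and 17 with upper quartile scaling. The summed level of 13839, 14648 and 14469 TPM lay just above DMSO, whereas in CPM scaled by TMM every 72 h library (6540, 6541 and 6518) lay below every DMSO library (6611, 6685 and 6726). Complex IV had the highest median, 0.25, with 6 of 11 members higher. In complex III 5 of 10 members were lower, and in complex V 7 of 19, a share of the size of the background. Set directly against 24 h, 68 members were lower at 72 h and 1, COX6B2, was higher (33.4% and 36.4% of all genes), with a median of -0.49. Past the study's limits were ATP5MC1 and NDUFB2, lower, and COX6B2, higher (3.04% and 8.89% of all genes). COX6B2 had 2 counts in all at 24 h and 48 at 72 h, where it was highest. The 72 h libraries may have carried it through the filter on low counts, so its call is not read as a result. Under a floor of 10 counts in every library 0 members were higher.

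**Figure D3:**
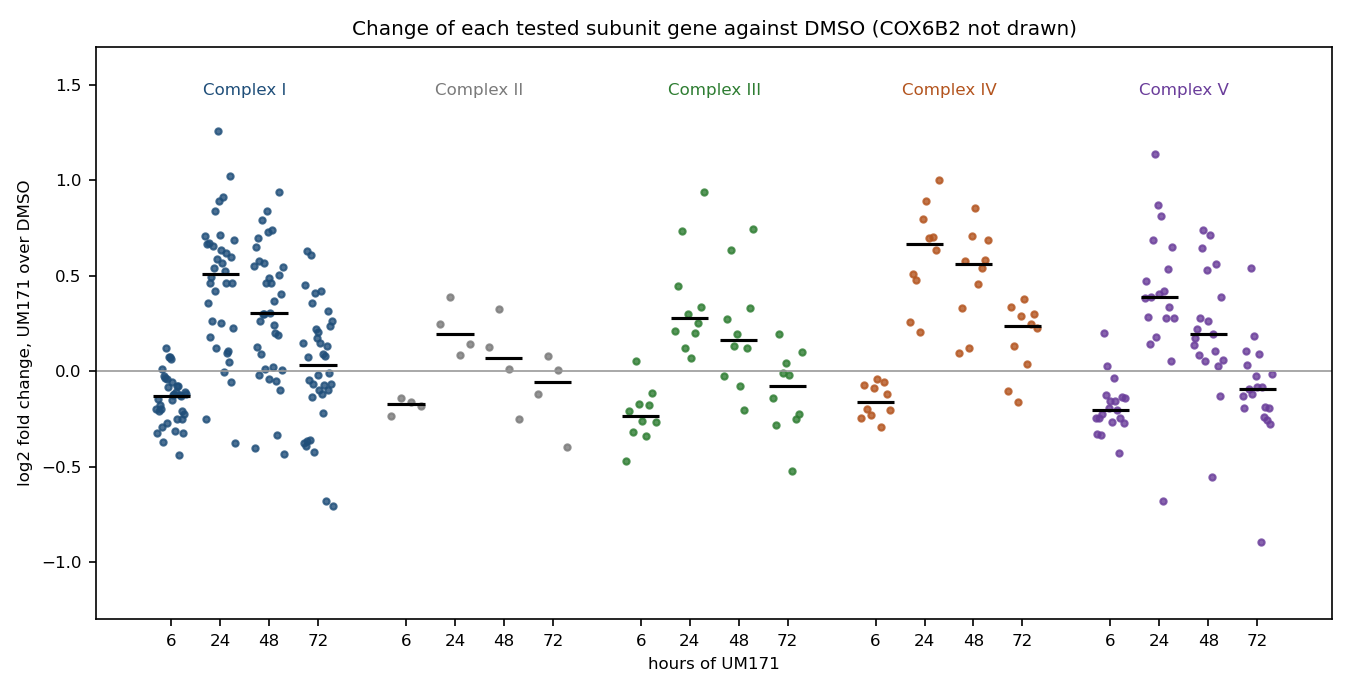
Log2 fold change against DMSO (y axis) of each tested member at 6, 24, 48 and 72 h of UM171 (x axis), grouped by complex; dots are genes, in order of symbol within a time, and bars are medians. Most dots of each complex lie above 0 at 24 h, and at 72 h they spread to both sides of 0; COX6B2 is not drawn, having 2 counts in all at 24 h.

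Single genes showed these courses. NDUFB2 was at 47.8, 52.4 and 51.8 TPM at 6 h and 49.7, 54.6 and 59.2 TPM at 72 h (log2 change at 72 h 0.22, SE 0.07, adjusted p = 0.014). ATP5MC1 was back at 78.5, 85.9 and 82.4 TPM, overlapping DMSO (log2 change -0.12, SE 0.07, adjusted p = 0.12). Some members stayed high. NDUFA13, an accessory subunit of complex I, was at 197, 227 and 216 TPM in DMSO, 342, 360 and 359 TPM at 24 h and 339, 364 and 344 TPM at 72 h (log2 change at 72 h 0.63, SE 0.04, adjusted p = 7.7e-10). NDUFA7, another, was at 61.0, 61.5 and 59.7 TPM in DMSO and 99.1, 102 and 90.1 TPM at 72 h (log2 change 0.61, SE 0.09). ATP5IF1 was at 214, 226 and 212 TPM at 72 h (log2 change 0.54, SE 0.09), above all DMSO libraries.

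The members that fell most at 72 h included NDUFS3, a core subunit of complex I, at 114, 122 and 118 TPM in DMSO and 73.1, 82.0 and 80.4 TPM at 72 h (log2 change -0.68, SE 0.10, adjusted p = 7.2e-06). NDUFV3 fell to 28.9, 28.2 and 28.6 TPM (log2 change -0.70, SE 0.06) and ATP5MF-PTCD1 to 4.75, 6.49 and 5.63 TPM (log2 change -0.89, SE 0.10). None of these overlapped DMSO. SDHD and UQCRFS1 fell by 0.40 (SE 0.07) and 0.52 (SE 0.07) on the log2 scale. COX6B2 had 14, 15 and 19 counts at 72 h, 27.4 times the count share at 24 h (95% exact interval 7.19 to 233, counting error only). The limit given above for its call applies here too.

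In sgEPCR cells 40 of the 79 members tested were called lower with UM171 at 24 h and the others passed in neither direction. Summed levels were 9375, 18709 and 17862 TPM in sgEPCR DMSO and 16118, 9396 and 16115 TPM in sgEPCR UM171, the lowest value of each group being the library with over 30% mitochondrial counts. These calls, 0 higher and 40 lower, compare with 27.0% and 25.1% of 15901 genes and came with a median log2 change of -0.39. Without the 2 libraries that stood apart, 0 were higher and 74 lower, with the same rounded median of -0.39. For counts without these libraries, here and below, no share over all genes is given, so they have no background. A larger count there is not read as a larger change. The lower calls rested on the method: limma on log2(TPM + 1) called 0 members in either direction and scaling by total count 9 lower. Against the median of all genes the members' median was lower by 0.375, and by 0.264 and 0.368 under these methods. On the 12 libraries of that fit, the log2 change with UM171 was above 0 in control cells for 74 of the 79 members. It was below 0 in sgEPCR cells for 76, with both true of 71. Without the 2 libraries these were 74, 77 and 72. No share over all genes is given for these signs, and they were counted under the main scaling only. In sgEPCR cells the members' median was -0.39 there, -0.21 with scaling by total count and -0.13 with limma on log2(TPM + 1). The medians of all genes were -0.01, 0.16 and 0.14.

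**Figure D4:**
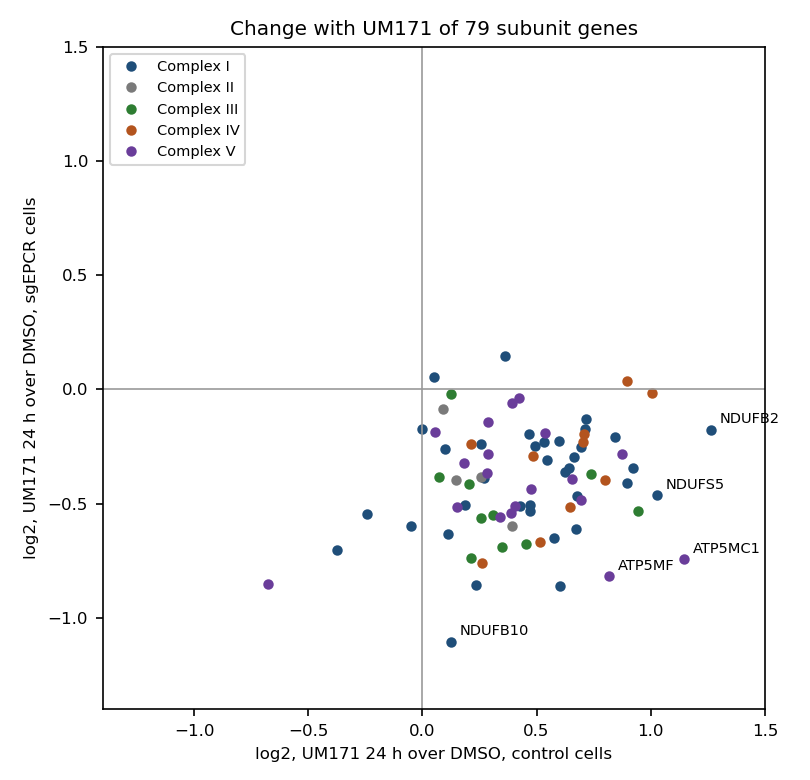
Log2 fold change with UM171 at 24 h over DMSO in control cells (x axis) and in sgEPCR cells (y axis) for the 79 members tested, coloured by complex. Of the dots, 71 lie right of 0 and below 0, and the medians are 0.45 in control and -0.39 in sgEPCR cells. Signs are those of the main scaling, and no share over all genes is given for them.

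The difference between the responses was tested as a genotype by UM171 interaction. It was lower in sgEPCR cells for 54 members and higher for 0 (23.1% and 21.9% of all genes), with a median of -0.90, and 9 members passed the study's limits, all lower (4.17% of all genes, with 3.6% higher). That number was 1 with scaling by total count or without DMSO replicate 3, 0 with limma, and 1 to 13 over all single libraries left out. Without the 2 libraries that stood apart it was lower for 76 and higher for 0, with a median of -0.85, and 26 passed. By complex it was lower for 27 of 36 members of complex I, 2 of 4 of complex II, 7 of 10 of complex III, 8 of 10 of complex IV and 10 of 19 of complex V, and without those libraries for 34, 4, 10, 10 and 18. With limma on log2(TPM + 1) it was lower for 5 members, and with scaling by total count for 28. The control DMSO libraries carry another hour label than the sgEPCR ones, so in this test genotype and labelled time cannot be told apart.

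ATP5MC1 differed most, at 72.3, 181 and 179 TPM in sgEPCR DMSO and 123, 59.9 and 132 TPM in sgEPCR UM171 (interaction -1.89 on the log2 scale, SE 0.20, adjusted p = 3.3e-05; -1.87 without the libraries that stood apart). Outside those libraries, the sgEPCR DMSO level was close to that of control cells at 24 h of UM171, and the treated level was lower. ATP5MF was at 502, 770 and 791 TPM and then at 562, 376 and 532 TPM (interaction -1.64, SE 0.30; -1.52 without them). NDUFS5 was at 189, 363 and 360 TPM and then at 285, 193 and 295 TPM (interaction -1.49, SE 0.15; -1.54 without them). NDUFB10, the only member past the study's limits within sgEPCR cells (3.33% of all genes were downward and 6.99% upward), was at 144, 241 and 237 TPM and then at 139, 70.5 and 140 TPM (log2 change -1.10, SE 0.09, adjusted p = 3.2e-06; -0.96 without them). Within sgEPCR cells 0 members passed those limits without the libraries that stood apart.

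Core subunits of complexes II and III showed the same sign. SDHB had an interaction of -0.99 (SE 0.12, adjusted p = 5.9e-05; -0.98 without those libraries) and UQCRFS1 of -0.62 (SE 0.11; -0.72 without them). ATP5F1A and ATP5F1B had -0.93 (SE 0.21) and -0.92 (SE 0.29), with the same rounded values without them. SDHC and NDUFS7 did not pass, at -0.18 (SE 0.08, adjusted p = 0.093) and -0.55 (SE 0.48, adjusted p = 0.38). Without those libraries both passed, SDHC at -0.19 (SE 0.05, adjusted p = 0.0030) and NDUFS7 at -0.47 (SE 0.09, adjusted p = 0.00052). ATP5MC3 was at 374, 452 and 408 TPM in sgEPCR DMSO and 364, 441 and 376 TPM in sgEPCR UM171, so for this gene the libraries that stood apart were the lowest of the first group and the highest of the second.

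Under DMSO, labelled 24 h in sgEPCR and 72 h in control cells, 47 of the 79 members were called higher in sgEPCR cells, a comparison that shares the control DMSO libraries with the time course. None was called lower by edgeR, so the counts were 47 and 0 (17.4% and 16.3% of all genes), with a median log2 difference of 0.56, and without the libraries that stood apart 74 and 2. NDUFS5 and UQCRQ, past the study's limits (1.43% of all genes upward and 1.41% downward), differed by 1.32 (SE 0.11) and 1.04 (SE 0.11), or 1.24 and 1.11 without the libraries that stood apart. Without DMSO replicate 2 or 3 the number past those limits was 0, and without the libraries that stood apart 5. Under limma on log2(TPM + 1) 1 member was called higher and with scaling by total count 14. With UM171 for 24 h in both genotypes, equal in labelled hours, 0 members were higher and 31 lower in sgEPCR cells (20.8% and 22.2% of all genes), with a median of -0.34 and 0 past the study's limits (2.67% upward and 1.79% downward), and 1 and 65 without the libraries that stood apart; limma on log2(TPM + 1) called 0.

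Other genes of mitochondria did not all move with the members at 24 h, when 34.9% of all genes tested were higher and 34.8% lower. The 13 protein genes of mitochondrial DNA, whose products sit in the same complexes, had 0 higher and 1 lower, with a median log2 change of -0.09. Of 46 assembly factors, which build the complexes, 16 were higher and 14 lower (median -0.04), close to those shares. Of 13 citric acid cycle genes 9 were higher and 2 lower (median 0.33), and of 78 mitochondrial ribosomal proteins 41 were higher and 19 lower (median 0.15). Cytosolic ribosomal proteins had 5 of 83 higher and 57 lower (median -0.22). In the interaction 23.1% of all genes tested were called lower. Lower responses in sgEPCR cells were called for 54 of the 78 mitochondrial ribosomal proteins, 24 of the 46 assembly factors, 10 of the 13 citric acid cycle genes, 11 of the 83 cytosolic ribosomal proteins and 0 of the 13 mitochondrially encoded genes. Without the libraries that stood apart these were 73, 37, 11, 41 and 3.

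Of 14 regulators of mitochondrial biogenesis, 4 were higher and 10 lower at 24 h (34.9% and 34.8% of all genes). At 72 h 1 was higher and 13 lower (38.8% and 36.8% of all genes). TFAM, which packages and transcribes mitochondrial DNA, was at 69.5, 69.1 and 69.7 TPM in DMSO, 94.0, 87.5 and 83.2 TPM at 24 h and 48.1, 46.1 and 55.3 TPM at 72 h (log2 changes 0.44, SE 0.05, and -0.32, SE 0.05). Among the factors named with the strings above, NRF1 changed by 0.26 (SE 0.05) at 24 h and by -0.19 (SE 0.05) at 72 h. YY1 changed by -0.27 (SE 0.03) and -0.45 (SE 0.03) at these times, and GABPA by -0.11 (SE 0.05) and -0.21 (SE 0.05). PPARGC1B, a coactivator of respiratory genes, was at 10.5, 11.4 and 12.2 TPM in DMSO, 8.24, 7.78 and 7.60 TPM at 24 h and 4.80, 4.87 and 4.75 TPM at 72 h (log2 changes -0.62, SE 0.04, and -1.27, SE 0.04). CYCS, cytochrome c, rose by 0.22 (SE 0.06) at 24 h and fell by 0.68 (SE 0.06) on the log2 scale at 72 h.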

How the data were processed

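RNA was taken with Trizol and RNeasy columns, and libraries were made with a stranded poly(A) kit. The deposited values are RSEM expected counts and TPM per gene, made by the authors; the submitters' processing notes name CASAVA 1.8.2, Trimmomatic 0.35, STAR 2.5.1b and RSEM 1.2.28 with GRCh38, whereas the study's methods describe kallisto and sleuth. Expected counts were rounded, 45 pseudoautosomal entries were summed with their partners, and symbols came from GENCODE 44. Gene lengths are the authors' values from the same files. Members and lists were chosen with earlier results of these data known.

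Tests were edgeR 4.0.16 quasi-likelihood fits (TMM, filterByExpr) with Benjamini-Hochberg adjustment, on the 15 time course libraries and on 12 libraries for sgEPCR, which spread more (biological coefficient of variation 0.187 against 0.0564). The fits were tested on simulated data. SE is the log2 change over the root of F. Levels are TPM, and exact permutation tests were used for ratios. Alternatives were limma 3.58.1 with pseudocounts of 1 and 0.1 TPM on the log2 scale, DESeq2 1.42.0, other scalings and filters, length and GC offsets, a replicate block, and leaving out libraries. Genes named were a list of core and paired subunits plus, at adjusted p under 0.05, the 3 largest rises and falls at 24 h, at 72 h and in the interaction; others named (NDUFB9, UQCRB, NDUFA4, NDUFA10, NDUFB4, NDUFB10, UQCRQ and genes outside the rule) were chosen after their values were seen. At 24286668 to 51540166 counts per library, intervals cover counting error only. No library pair of a group agreed within sampling noise. Values of 1 listed subunit and 1 listed marker are not reported here.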

Additional observations from a re-analysis of the deposited data

Results flagged for a closer look

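The response to UM171 at 24 h differed between sgEPCR and control cells for 54 members, all lower in sgEPCR cells. The test was of the difference itself (edgeR, genotype by UM171 interaction), and it called 23.1% of all genes lower and 21.9% higher. The member count was 5 and 4 with limma at pseudocounts of 1 and 0.1, 28 with total count scaling and 76 without the libraries that stood apart. Other sets, among them the mitochondrial ribosomal proteins, also had lower calls, as given above. The control DMSO libraries carry another hour label than the sgEPCR ones, so genotype and labelled time cannot be told apart. The members with the most negative differences were ATP5MC1, with -1.89 on the log2 scale, ATP5MF, with -1.64, and NDUFS5, with -1.49. The gap test for single samples was not applied to groups of 3.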

How the results depend on the processing

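Of 852 recomputed values over 42 counts and summed levels, 738 stayed within 1.5 times the reported count or 1 SD of the level and 114 moved; counts have no direction here. The cause of each move was not tested. The rises at 24 h and the lower levels at 72 h than at 24 h held in their counts under every alternative run, apart from the members past the study's limits. For single named genes the direction turned in 14 values. At 6 h, SDHB, SDHC and UQCRC1 gave 0.0434, 0.0652 and 0.0800 with limma on log2(TPM + 1), 0.0436, 0.0656 and 0.0804 with log2(TPM + 0.1), and 0.0423, 0.0245 and 0.0113 with total count scaling, under which SDHD gave 0.0044 and NDUFA13 0.0076; in sgEPCR DMSO against DMSO, NDUFS1 gave -0.315, -0.323 and -0.00158 under these.

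At 6 h, members higher and lower numbered 3 and 3 with limma at either pseudocount, 10 and 5 with total count scaling and 4 and 24 with upper quartile scaling; members higher numbered 2 under a floor of 10 counts in all libraries, 1 with no filter, 1 with only the groups compared in the fit, and 0 to 1 with a library left out. At 24 h the members past the study's limits were 2 with the GC offset and 2 to 5 with a library left out, the 2 being without DMSO replicate 2. At 48 h they were 1 with the length offset. At 72 h, members lower were 11 and 11 with limma and 15 with total count scaling, and members higher 29, 29 and 29. At 72 h against 24 h, 0 members were higher under that floor.

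For sgEPCR UM171 against sgEPCR DMSO, members lower were 0 and 0 with limma, 9 with total count scaling, 24 with upper quartile scaling and 74 without the libraries over 20% mitochondrial counts, with 1 higher when all 21 libraries were fitted; members past the study's limits were 0 with limma, total count scaling, upper quartile scaling, the GC offset or without those libraries. For sgEPCR DMSO against DMSO, members higher were 1 and 1 with limma, 14 with total count scaling and 74 without those libraries; members lower were 1 with no filter, 1 with all libraries and 2 without those libraries; members past the limits were 5 with DESeq2, 0 and 0 with limma, 1 with total count or upper quartile scaling, 5 with all libraries, 5 without those libraries and 0 to 3 with a library left out. For sgEPCR UM171 against UM171, members lower were 0 and 0 with limma, 17 with total count scaling, 19 with the length offset and 65 without those libraries, with 1 higher there and 1 with all libraries. For the interaction, members lower were 5 and 4 with limma and 28 with total count scaling, members higher were 1 with no filter and 1 with all libraries, and members past the limits were 0 and 0 with limma, 1 with total count scaling, 15 with all libraries, 26 without those libraries and 1 to 13 with a library left out.

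Same-numbered libraries deviated together with a correlation of -0.08 to 0.08 in the time course and -0.56 to 0.40 in the sgEPCR fit. The libraries that stood apart carry different replicate numbers and enter the sgEPCR values, which therefore cannot tell whether samples were paired. The main fits did not take the numbers to pair samples. With a replicate block, members lower were 22 for sgEPCR UM171 against sgEPCR DMSO and 2 for sgEPCR UM171 against UM171, 13 were higher for sgEPCR DMSO against DMSO, and 0, 0 and 0 members passed the limits in the first, the third and the interaction. With the replicate block and the length offset these counts were 21, 3 and 15, again 0, 0 and 0 passed, and 1 passed at 48 h.

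With TMM-scaled CPM in place of TPM, the summed level over DMSO at 24 h was 1.33, 1.17, 1.204, 1.55 and 1.37 times for complexes I to V, and at 72 h 1.01, 0.934, 0.934, 1.11 and 0.938 times, those of complexes II and V being above 1 in TPM. Rescaled without mitochondrially encoded genes, TPM gave 1.15, 1.04, 1.04 and 1.05 times at 72 h for complexes I, II, III and V, that of complex III being under 1 in TPM as deposited. With a library left out the 24 h level was 1.40 to 1.44 times for complex I and 1.57 to 1.63 times for complex IV.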
